A study of Mus musculus with 2 samples.

Results

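The 8 genes Haus1 to Haus8 encode the subunits of augmin, a complex of the mitotic spindle. They were chosen by the UMI counts of Haus4, which were low in the knockdown library described below, together with the other subunits of its complex. The difference of Haus4, in all cells or in any part of them, is therefore given as a description. All 8 symbols were found among the 28692 genes of both count tables. A UMI (unique molecular identifier) stands for 1 captured transcript, and CPM is the number of UMIs of a gene per 1000000 UMIs. All 8 genes reached 10 CPM.

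Augmin attaches to the side of existing spindle microtubules and recruits the gamma-tubulin ring complex, from which new microtubules branch. In dividing cells this fills the spindle with microtubules and helps chromosomes to attach. Haus1, Haus3, Haus4 and Haus5 form one subcomplex, and Haus2, Haus6, Haus7 and Haus8 form the other, which contacts the microtubule.

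The cells were bone marrow LSK cells (lineage-negative, Sca-1-positive, Kit-positive stem and progenitor cells) of C57BL/6 mice, 5 by the series' description, which does not say whether both groups came from the same animals. They were infected with a retrovirus carrying an shRNA, sorted for GFP and the LSK markers, and kept for 3 days in 20% serum with 10 ng/ml each of the cytokines GM-CSF and SCF, which drive myeloid differentiation. The control virus targets no mouse gene and the knockdown virus targets Cxxc5. For each group 5 samples were pooled into 1 library, so no difference has a replicate check and no p-value is given. The age of the mice is not stated.

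The control library held 2912 filtered cells with a median of 17197 UMIs, and the knockdown library 6004 cells with a median of 10599 UMIs. Cxxc5 had 9.38 CPM from 462 UMIs in control cells and 1.16 CPM from 73 UMIs after knockdown. The libraries shared 26 barcode sequences. Each range in brackets is a 95% interval for counting error alone, and it leaves out any variation among mice, infections or cultures.

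Haus4 was lower after knockdown while the other 7 subunits had close to equal levels. Haus4 gave 2744 UMIs in control cells, or 55.7 CPM (53.6 to 57.8). After knockdown it gave 1520 UMIs, or 24.2 CPM (23.0 to 25.4). The log2 ratio of knockdown over control was -1.20 (-1.30 to -1.11), which is 2.30-fold lower, and the intervals of the levels did not overlap.

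The direct partners of Haus4 in its subcomplex did not share this. Haus1 stood at 31.4 CPM against 30.3 CPM after knockdown (log2 -0.05, -0.15 to 0.05). Haus3 stood at 20.9 CPM against 22.6 CPM after knockdown (log2 0.11, -0.01 to 0.23). Haus5 stood at 16.4 CPM against 16.3 CPM after knockdown (log2 -0.01, -0.15 to 0.12). All 3 intervals of the ratio contained 0.

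The microtubule-binding subcomplex was equally even. Haus2 was at 17.6 CPM against 18.3 CPM after knockdown (log2 0.05, -0.08 to 0.18). Haus6, which contacts the ring complex adaptor Nedd1, was at 15.3 CPM against 16.4 CPM after knockdown (log2 0.10, -0.04 to 0.23). Haus7 was at 17.0 CPM against 17.7 CPM after knockdown (log2 0.06, -0.07 to 0.19). Haus8, whose N-terminal part binds microtubules, was at 38.8 CPM against 39.9 CPM after knockdown (log2 0.04, -0.05 to 0.13). Each of these intervals contained 0 and lay clear of the ratio of Haus4.

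Of the 8 subunits, 1 was at least 1.2-fold lower, namely Haus4, by which the set was chosen. The other 7 were within that fold, and 0 were at least 1.2-fold higher. Among all 6743 genes of at least 10 CPM, 4.72% were lower by that fold and 3.8% higher, 8.51% in all. The median log2 ratio was 0.05 over the subunits and 0.03 over all genes. Summed, the other 7 subunits were at 157 CPM against 161 CPM after knockdown (log2 0.04, -0.01 to 0.08). The log2 ratio of Haus4 minus that of its summed partners was -1.24.

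**Figure D1:**
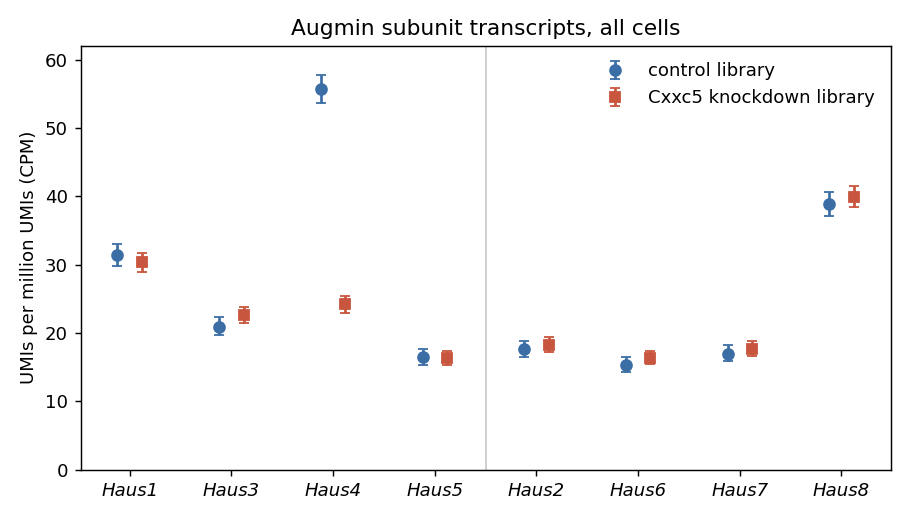
Level of each augmin subunit in all cells of the control library (circles) and the Cxxc5 knockdown library (squares), in CPM, with 95% counting intervals; the grey line separates the 2 subcomplexes. Haus4 is at 55.7 CPM in control and 24.2 CPM in knockdown cells, while the points of every other subunit lie close together.

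The share of Haus4 among all augmin UMIs does not depend on how the libraries are scaled. It was 26.1% of 10503 UMIs in control cells (25.3 to 27.0%, Clopper-Pearson). After knockdown it was 13.02% of 11673 UMIs (12.4 to 13.6%).

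The promoter windows of augmin genes are shown because Cxxc5 has a CXXC zinc finger, a domain known to bind CpG that is not methylated. RefSeq windows (GRCm38.p6), from 250 bases before to 50 after the start, were at hand for 7 of the 8 genes, with 2 windows for Haus2. The motif searched was CG, which reads the same on both strands and is in capitals. The Haus4 window is followed by that with the most CG (Haus8) and one of the 2 with the fewest (Haus5).
Haus4, chr14:54554312-54554611, minus strand: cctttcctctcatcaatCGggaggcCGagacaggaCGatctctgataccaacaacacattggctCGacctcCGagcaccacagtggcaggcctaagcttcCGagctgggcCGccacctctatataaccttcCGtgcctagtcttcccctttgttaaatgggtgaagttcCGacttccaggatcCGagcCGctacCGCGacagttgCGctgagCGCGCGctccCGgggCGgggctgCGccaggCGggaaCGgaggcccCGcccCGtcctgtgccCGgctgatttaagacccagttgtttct
Haus8, chr8:71272541-71272840, minus strand: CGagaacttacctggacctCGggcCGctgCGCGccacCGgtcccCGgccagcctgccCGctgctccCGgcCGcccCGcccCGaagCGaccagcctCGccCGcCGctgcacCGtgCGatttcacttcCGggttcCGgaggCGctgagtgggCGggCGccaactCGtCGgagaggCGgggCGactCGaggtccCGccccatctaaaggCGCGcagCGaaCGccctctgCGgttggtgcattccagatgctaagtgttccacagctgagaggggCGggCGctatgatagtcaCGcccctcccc
Haus5, chr7:30664945-30665244, minus strand: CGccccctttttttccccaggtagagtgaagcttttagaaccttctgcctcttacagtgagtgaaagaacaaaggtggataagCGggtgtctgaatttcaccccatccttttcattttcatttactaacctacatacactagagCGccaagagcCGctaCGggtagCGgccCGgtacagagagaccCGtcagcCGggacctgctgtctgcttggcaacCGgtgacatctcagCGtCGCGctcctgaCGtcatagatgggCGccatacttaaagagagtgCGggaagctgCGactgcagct

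The window of Haus4 held 25 CG, and 18.4% of 32851 windows held at least as many. Haus8 held 37 (reached by 5.58% of windows), and Haus5 and Haus6 held 17 each (31.4%). Haus3 held 27, Haus7 18 and the windows of Haus2 23 and 24. All were above the median of 7, and Haus4 lay inside the range of its partners. Binding and methylation were not measured.

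Haus4 (ENSMUSG00000022177) lies on chromosome 14 from 54541785 to 54554616, minus strand (GRCm38, GENCODE M21), and the other 7 genes lie on 7 other chromosomes. The promoter window of Haus4 printed above lies wholly inside this span, so its RefSeq start is not the outermost GENCODE start. The same holds for the window of Haus8. The measured genes next to Haus4 were all within 1.2-fold, as were all but 8.51% of genes, so the 6 do not stand apart from genes at large. On the side of lower coordinates, the arginine methyltransferase gene Prmt5 had a log2 ratio of 0.15, the receptor gene Lrp10 0.10 and the mitochondrial ribosomal protein gene Mrpl52 -0.08. On the other side the proteasome subunit gene Psmb5 had 0.08, the splicing-associated gene Acin1 -0.06 and 1700123O20Rik 0.03. The counting intervals of 5 of these 6 excluded 0, at sizes far below that of Haus4.

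No annotated gene overlaps Haus4, and no transcript of another gene shared at least 80 bases at 95% identity with it. The same search found no shared stretch for Haus6 and Haus7. Haus3 overlaps Poln on the same strand, and Haus5 shares 1860 bases at 97.4% identity with Gm8146 and also overlaps Gm21982, neither listed in the count tables. Haus1, Haus2 and Haus8 share stretches with 62, 36 and 23 other genes and overlap Atp5a1, Lrrc57 and Myo9b on the opposite strand. Haus6 overlaps the small RNA gene Scarna8 on the same strand. Reads of overlapping genes and shared stretches may be split by the counting, and whether this touched any of these counts was not tested.

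Cells of both libraries were clustered together without the 8 genes, and clusters were named by marker lists. Cluster 0 was granulocyte-monocyte progenitor-like (Gfi1, Nkg7, Ctsg) and cluster 1 neutrophil-like (Fcnb, Stfa1). Ms4a3 and Prss57 were also raised in cluster 0, but Mpo, Elane, Prtn3 and other members of the same list were not. Cluster 1 also had raised granulocyte-monocyte progenitor markers (Elane, Prtn3, Ctsg, Gfi1 and others), and Ltf and Camp were not raised there. Cluster 2 was monocyte-macrophage-like (Ms4a6c, Irf8, Ccr2). Cluster 6 was neutrophil-like with late granule genes (Ltf, Camp, Ngp), and cluster 7 was dendritic cell-like (H2-Aa, Cd74, Ccl17). Cluster 7 also had raised monocyte-macrophage (Csf1r, Ccr2, Lyz2, Irf8 and others) and multipotent progenitor (Cd34, Ly6a, Sox4 and others) markers. Cd209a, Xcr1, Siglech, Zbtb46 and Clec9a of the dendritic cell list were not raised there. Clusters 3 (Slc39a1, Rpgrip1), 4 (Cd34, Fut8) and 5 (Prss34, Gata2, Pf4) stayed unnamed. Cluster 5 had raised mast cell (Cpa3, Fcer1a, Hdc) and basophil (Mcpt8, Cd200r3) markers, among markers of other lists. It held 313 control cells. A finer clustering, and one without the highest doublet scores, each named a cluster of similar size mast cell-like (312 and 336 control cells). Whether these are the same cells was not tested. No cluster took the name of the multipotent progenitor list, so the cultured cells are described by these myeloid classes and not as LSK cells. The share of cells in cluster 0 was 15.2% of control and 26.7% of knockdown cells.

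Haus4 was at least 1.2-fold lower after knockdown in all 8 clusters, and in 7 the interval excluded 0. The clusters divide the same Haus4 UMIs by which it was chosen, so these levels are a description. On the granulocyte side, cluster 0 had 56.9 CPM against 21.1 CPM after knockdown (log2 -1.43, -1.62 to -1.24; 5.57% of genes lower). Neutrophil-like cluster 1 had 47.5 CPM against 16.6 CPM after knockdown (log2 -1.51, -1.78 to -1.25; 9.99% of genes lower). Late neutrophil-like cluster 6 had 34.7 CPM against 12.4 CPM after knockdown (log2 -1.49, -2.12 to -0.90; 18.1% of genes lower). The ratio intervals of these 3 clusters overlapped.

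Monocyte-macrophage-like cluster 2 had 63.5 CPM against 29.1 CPM after knockdown (log2 -1.13, -1.34 to -0.92; 7.86% of genes lower). Cluster 3 had 53.6 CPM against 21.9 CPM after knockdown (log2 -1.29, -1.58 to -1.001; 10.2% of genes lower). Cluster 4, led by the progenitor antigen gene Cd34, had 67.1 CPM against 28.7 CPM after knockdown (log2 -1.22, -1.46 to -0.99; 7.57% of genes lower). The levels in control and knockdown cells were apart beyond counting error in these clusters too.

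The smallest differences were in clusters 5 and 7. Cluster 5 had 65.4 CPM against 38.3 CPM after knockdown (log2 -0.77, -1.05 to -0.50; 10.6% of genes lower). Dendritic cell-like cluster 7 had 43.5 CPM against 33.01 CPM after knockdown (log2 -0.40, -0.90 to 0.08; 22.4% of genes lower), from 103 and 56 UMIs. Whether the effect differs between clusters was not tested. These clusters also had the most Cxxc5 in control cells, 37.8 CPM in cluster 5 and 29.2 CPM in cluster 7, against 15.9 CPM or less elsewhere.

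**Figure D2:**
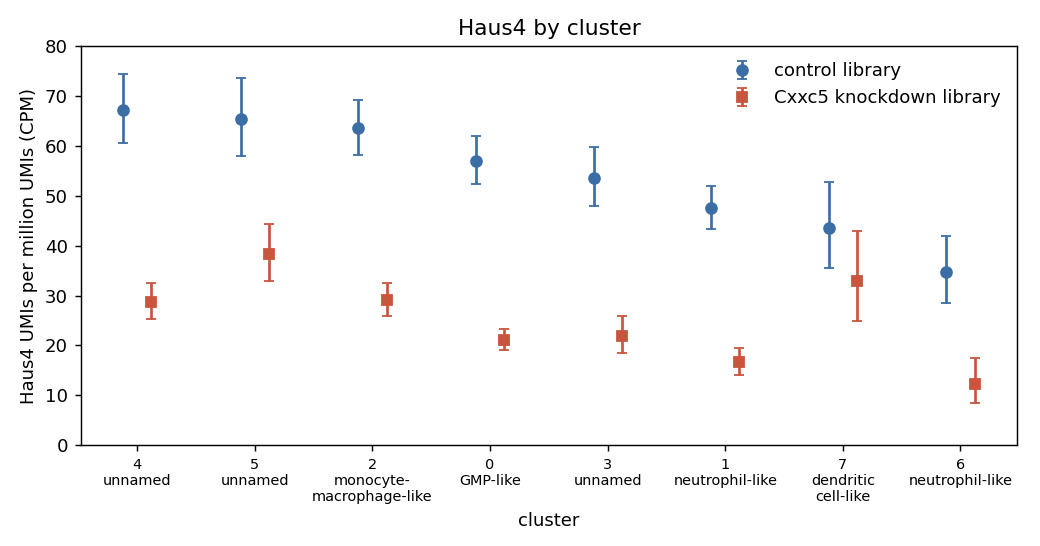
Haus4 level in CPM by cluster, ordered by the control level, with 95% counting intervals (circles, control; squares, knockdown; GMP-like stands for granulocyte-monocyte progenitor-like). The control point is above the knockdown point in all 8 clusters, and the intervals overlap only in dendritic cell-like cluster 7.

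Among control cells the order of Haus4 from high to low was clusters 4, 5, 2, 0, 3, 1, 7 and 6, and no neighbours in it differed beyond counting error. The ends differed by 0.95 on the log2 scale (0.64 to 1.28). After knockdown the order was 5, 7, 2, 4, 3, 0, 1 and 6, with 1.63 (1.08 to 2.23) between the ends. There cluster 4 was above cluster 3, and cluster 0 above cluster 1, beyond counting error, and other neighbours were not.

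The partners did not follow Haus4. Their summed log2 ratio was -0.12 in cluster 1 (-0.22 to -0.02), 0.18 in cluster 3 (0.05 to 0.30) and 0.21 in cluster 5 (0.05 to 0.37), and the intervals of the other 5 clusters contained 0.

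Counted singly, all 7 partners were within 1.2-fold in clusters 0, 2 and 4, where 6.09%, 8.22% and 10.1% of genes were higher. In cluster 5, Haus2, Haus5, Haus6, Haus7 and Haus8 were higher (13.1% of genes), each with an interval that contained 0. In cluster 3, Haus1 and Haus3 were higher (6.99% of genes). In cluster 1, Haus2 was lower (9.99% of genes lower) and none was higher (7.08% of genes higher). In cluster 6, Haus3 was higher (22.8% of genes) and Haus5 lower (18.1% of genes). In cluster 7, Haus1 and Haus7 were higher (20.1% of genes) and Haus5 lower (22.4% of genes).

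**Figure D3:**
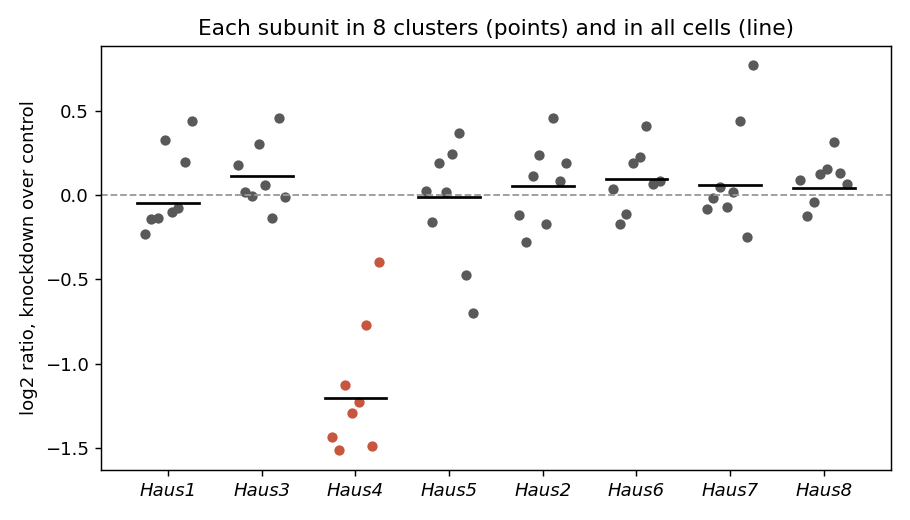
Log2 ratio of knockdown over control for each subunit in each of 8 clusters (points) and in all cells (line). The Haus4 points run from -1.51 to -0.40, and those of the other subunits scatter around 0, from -0.70 to 0.77.

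As a share of augmin UMIs, Haus4 in cluster 5 was 32.3% (29.1 to 35.5%) in control cells and 19.5% (17.0 to 22.2%) after knockdown. In dendritic cell-like cluster 7 it was 26.4% (22.1 to 31.1%) in control cells and 20.4% (15.8 to 25.6%) after knockdown. Only the intervals of cluster 7 overlapped among the 8 clusters.

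Subunits also varied by cell class within a library. In late neutrophil-like cluster 6, 6 of 8 were at least 1.2-fold below the other cells in each library, as were 69.3% of genes in control and 68.4% in knockdown cells. Haus2 had 7.53 CPM against 18.3 CPM elsewhere in control cells, and 7.98 CPM against 18.7 CPM after knockdown. Haus6 had 6.87 CPM against 15.9 CPM and 7.18 CPM against 16.8 CPM. The exceptions were Haus8, with 39.0 CPM against 38.8 CPM and 42.7 CPM against 39.8 CPM, and Haus5, with 20.0 CPM against 16.2 CPM and 14.4 CPM against 16.4 CPM.

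In dendritic cell-like cluster 7, 5 of 8 were below the other cells in each library (37.4% and 40.1% of genes). Haus4 was below them in control cells, with 43.5 CPM against 56.3 CPM, but above them after knockdown, with 33.01 CPM against 23.9 CPM. Among control cells Haus8 was highest in cluster 1 and lowest in cluster 5, each apart from its neighbour in the order beyond counting error. After knockdown the same clusters were at the ends, but neither was apart from its neighbour. Across the 8 clusters of control cells, Pearson's r of log2(CPM + 1) with Haus4 was 0.88 for Haus2, 0.88 for Haus6, 0.87 for Haus3, 0.63 for Haus1, 0.61 for Haus7, -0.47 for Haus8 and -0.87 for Haus5. After knockdown it was 0.80, 0.73, 0.25, -0.13, 0.48, -0.84 and -0.13 in the same order of genes. The points share a library and its total, so these are descriptions.

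Shares of cells were compared at an equal depth of 5000 UMIs, drawn at random from each cell; 115 control cells and 641 cells of the knockdown library had fewer and were dropped. At that depth Haus4 was seen in 23.1% of 2797 control cells (21.5 to 24.7%), and in 11.3% of 5363 cells after knockdown (10.5 to 12.2%). Unthinned, the shares were 54.9% and 21.3%. Of thinned control cells 561 held 1 UMI, 73 held 2 and 12 held 3. After knockdown the numbers were 562, 44 and 1.

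A few rich cells did not hold the Haus4 UMIs: the 10 richest had 2.33% and 2.17% of Haus4 UMIs. No cell class known to lack Haus4 was at hand to measure free RNA. In cluster 6, where its level was lowest, the shares after the same thinning were 17.4% of 236 and 6.74% of 267 cells.

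**Figure D4:**
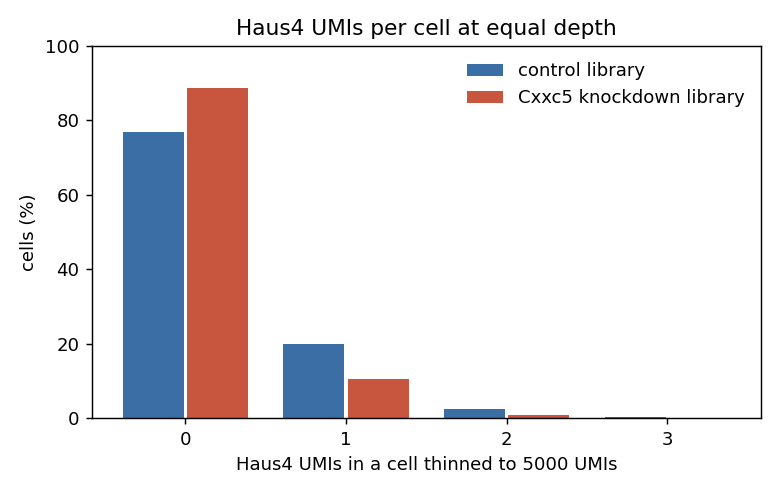
Share of cells with 0, 1, 2 or 3 Haus4 UMIs after each cell was thinned to 5000 UMIs, in 2797 control and 5363 knockdown cells. The bar at 0 UMIs stands at 76.9% for control and 88.7% for knockdown cells.

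For the partners the shares of thinned cells overlapped within counting error. Haus1 was found in 14.1% and 14.2% of control and knockdown cells and Haus8 in 17.4% and 17.4%. The shares were 8.29% and 8.48% for Haus2, 8.94% and 9.70% for Haus3, 8.29% and 8.06% for Haus5, 7.40% and 7.81% for Haus6 and 7.58% and 8.75% for Haus7.

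Since augmin acts on the spindle, levels were set against cell cycle phase calls. By these calls G2/M held 62.7% of control and 66.5% of knockdown cells, S 30.7% and 30.9%, and G1 6.54% and 2.65%. The calls are labels from gene scores, and the true share of cells in each phase was not measured. Among the compared clusters, late neutrophil-like cluster 6 had the most G2/M gene UMIs per thinned cell, 39.4 in control and 43.1 in knockdown cells. G1 cells had fewer UMIs, with medians of 11149 and 8010 against 18970 and 11625 in G2/M, and made up 28.5% of control cells in dendritic cell-like cluster 7. The part of depth and cell class in the phase results was not tested.

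Haus4 was lower after knockdown in S, at 59.8 and 27.3 CPM (log2 -1.13, -1.30 to -0.97; 6.41% of genes lower). In G2/M it was at 55.9 and 23.1 CPM (-1.27, -1.39 to -1.16; 4.84% of genes lower). The phases also divide the Haus4 UMIs by which it was chosen, so these levels are a description. All 7 partners were within 1.2-fold in both phases, where 6.96% and 3.44% of genes were higher.

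In the few G1 cells counts were small, and partners were less even. Haus4 had 33.8 and 24.8 CPM (log2 -0.45, -1.10 to 0.18), and Haus8 was lower as well (21.3% of genes lower). Haus1, Haus2, Haus3, Haus5 and Haus7 were at least 1.2-fold higher (31.1% of genes). Of these only Haus5, with 6.03 and 13.6 CPM (log2 1.18, 0.05 to 2.34), had an interval that excluded 0, from 13 and 17 UMIs.

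Among control cells all 8 subunits were at least 1.2-fold higher in G2/M than in G1 (46.5% of genes), with a median log2 ratio of 0.80 against 0.23 over all genes. Haus5 had 6.03 and 16.8 CPM in G1 and G2/M, Haus1 17.6 and 31.7 CPM and Haus4 33.8 and 55.9 CPM. After knockdown 4 of 8 were higher (37.7% of genes), with medians of 0.28 and 0.16. Haus4 was not among these 4, with 24.8 and 23.1 CPM. With phases called from all UMIs the counts were 8 and 7, so the contrast between the libraries rests on how phases were called. In S against G1, 8 of 8 and 6 of 8 were higher (41.2% and 35% of genes). Between S and G2/M no subunit differed by 1.2-fold (14.4% and 12.6% of genes in either direction). Smaller differences with intervals below 0 were those of Haus4 after knockdown, -0.24 for G2/M over S (-0.40 to -0.08), and of Haus8 in control cells, -0.17 (-0.32 to -0.03).

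Cells were also ranked by their UMIs of G2/M genes after thinning and divided into groups of 20%. From the lowest to the highest group Haus4 had 49.3, 56.2, 55.4, 57.2 and 47.6 CPM in control cells. After knockdown it had 27.8, 25.3, 25.7, 20.1 and 22.8 CPM. The log2 ratios were -0.83, -1.15, -1.10, -1.51 and -1.06, each with an interval below 0, where 16.3%, 13.5%, 13.1%, 14.8% and 13.9% of genes were lower. The libraries were apart in every group, but the groups divide the same Haus4 UMIs by which it was chosen, so this is a description. In the lowest group Haus7 was at 11.8 and 20.1 CPM (0.77, 0.20 to 1.38; 25.6% of genes higher).

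Between the highest and lowest of these groups 4 of 8 subunits were at least 1.2-fold higher in control cells (35.9% of genes). After knockdown Haus3 was higher (25.4% of genes) and Haus4 lower (log2 -0.29, -0.64 to 0.07; 9.85% of genes). Intervals excluded 0 for Haus5 in control cells (12.1 and 20.0 CPM) and for Haus3 after knockdown (16.6 and 24.4 CPM). Without late neutrophil-like cluster 6 the numbers higher were 6 (40.8% of genes) and 1 (29.5% of genes).

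**Figure D5:**
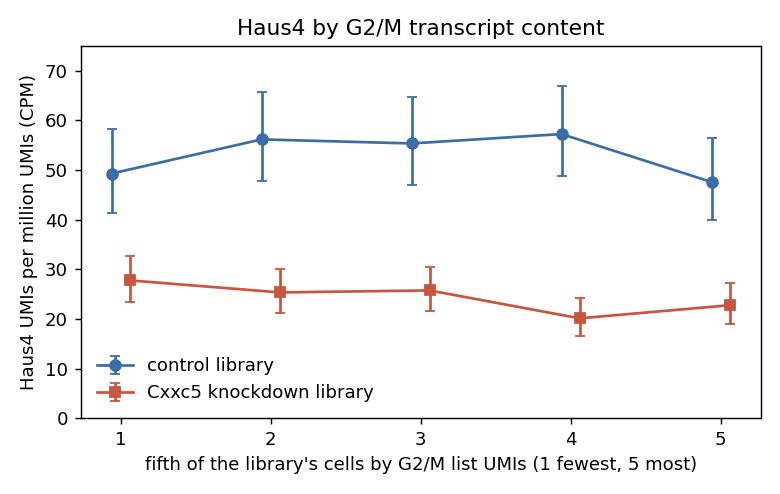
Haus4 level in CPM by group of 20% of each library's cells, ranked by G2/M gene UMIs in cells thinned to 5000 UMIs, with 95% counting intervals. The control points lie between 47.6 and 57.2 CPM, all above the knockdown points, which lie between 20.1 and 27.8 CPM.

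Genes of at least 10 CPM that work with augmin were within 1.2-fold in the libraries, as were all but 8.51% of genes. The counts below are thus near those of genes at large. Of 11 gamma-tubulin ring complex genes 8 reached 10 CPM, and all 8 were within 1.2-fold (median log2 0.05). Among the ring complex genes below that level, some were higher by more than 1.2-fold. Tubg1, the gamma-tubulin itself, had a log2 ratio of 0.06, and the small ring components Mzt1 and Mzt2 had 0.09 and 0.06. All 20 spindle assembly genes reached 10 CPM and were within 1.2-fold (median 0.05). Among those of at least 20 CPM the lowest were the spindle factor Tpx2 (-0.09), the kinesin gene Cenpe (-0.05) and Racgap1 (-0.04). The highest were the microtubule depolymerase gene Kif2a (0.20) and the mitotic kinases Plk1 (0.17) and Aurka (0.17).

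Over the 16 sums of 8 clusters in 2 libraries, the genes most like Haus4 among 4797 others of at least 20 CPM were Gm9493 (Pearson's r of log2(CPM + 1) 0.91), Rpl23a-ps3 (0.90), Rpl9-ps6 (0.87), Gm10036 (0.85) and Rpl6l (0.85). Genes chosen by likeness to Haus4 over both libraries are bound to be lower after knockdown, so their log2 ratios are given as a description only (4.06% of genes of that level were lower by 1.2-fold or more). They ran from -0.69 for Gm9493 to -0.38 for Rpl23a-ps3. Counts of genes named as copies (-ps) are uncertain. The r of the augmin partners ran from -0.49 for Haus8 to 0.42 for Haus2. The points share libraries and totals, so this is a description.

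Among control cells Haus4 had 60.1 CPM in the 368 cells with a Cxxc5 UMI and 55.0 CPM in the 2544 without (log2 0.13, -0.03 to 0.28). At the cluster make-up of the cells with one, those without would have had 60.2 CPM. Haus5 was lower in cells with a Cxxc5 UMI, at 13.4 against 16.9 CPM (-0.34, -0.67 to -0.02), and it was the only subunit past 1.2-fold there (11.1% of genes lower and 16.9% higher). Haus8 was at 34.1 against 39.6 CPM (-0.22, -0.42 to -0.02). At the cluster make-up of the cells with a Cxxc5 UMI, the others would have had 15.3 CPM of Haus5 and 33.7 CPM of Haus8.

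After knockdown the 73 cells with a Cxxc5 UMI gave 32 Haus4 UMIs, or 40.6 CPM, against 24.0 CPM in the other 5931 cells (0.76, 0.21 to 1.26). Of these cells 23 lay in cluster 5 and 8 in cluster 7, the clusters with the most Haus4 after knockdown. Clusters with less Haus4 held the others, with 14 in cluster 4, 13 in cluster 0, 8 in cluster 3 and fewer elsewhere. At the same cluster make-up the cells without a Cxxc5 UMI would have had 28.7 CPM. That lies inside the counting interval of the 40.6 CPM (27.7 to 57.3).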

How the data were processed

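The authors deposited raw UMI counts for every gene and barcode of 2 libraries (10x 3' chemistry, version 2, per the labels' protocols). Cell Ranger 2.1.1 and the build mm10 are named in the submitters' processing notes, with no annotation release. Totals were 49333454 UMIs (control) and 62910229 UMIs (knockdown). Barcodes with under 500 genes or over 10% mitochondrial UMIs were dropped (13 and 11). Scrublet, run in scanpy 1.11.5, marked 1 and 6 cells, too few to rely on, so doublets were kept.

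Levels are UMI sums with exact Poisson intervals, and ratios have exact conditional binomial intervals; UMIs were treated as independent. Clustering used counts scaled to 10000, logs, 2000 variable genes, 30 components, 15 neighbours and Leiden resolution 0.6. A cluster was named when at least 2 markers of a list were among its top 10 genes by fold (at least 50 CPM) and 3 were raised 1.5-fold at 20 CPM or more; the minimum of 2 was set after clusters were seen. Clusters of at least 100 cells per library were compared, which left out a mast cell-like cluster of 10 and 19 cells. The multipotent progenitor, basophil, eosinophil, megakaryocyte, erythroid, lymphoid and stromal lists named no cluster. Phases came from scanpy scores on thinned cells.

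Members, lists and tests were chosen with earlier results of these data known. The text names all members, Cxxc5, the 3 highest and 3 lowest genes of at least 20 CPM in the ring complex and spindle lists, 3 measured neighbours on each side of Haus4, and the 5 genes most like it. The computation was tested on simulated counts of 6623 genes for the comparison over all cells: a planted fold of 0.5 came back as a median log2 of -1.00.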

Additional observations from a re-analysis of the deposited data

Results flagged for a closer look

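Haus1 had intervals on opposite sides of 0 in different clusters. Its log2 ratio of knockdown over control was -0.23 (-0.42 to -0.03) in granulocyte-monocyte progenitor-like cluster 0, with 36.1 CPM against 30.8 CPM after knockdown. In unnamed cluster 3 it was 0.32 (0.03 to 0.62), with 27.4 CPM against 34.3 CPM. The difference between the clusters was not tested.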

How the results depend on the processing

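Over 9 other ways of computing the levels in all cells, the log2 ratio of Haus4 ranged from -1.24 to -1.11, and its difference from the summed partners from -1.25 to -1.16. They were no cell filter, median ratio scaling, totals without the 50 most abundant genes, thinned cells, equal weight per cell, leaving out the 10 cells richest in the gene or the highest doublet scores, and cluster or phase shares of the control library. With equal weight per cell the summed partners were at 0.082. At Leiden resolution 1.0 Haus4 was lower in 9 of 9 clusters (-1.62 to -0.80), and without the highest doublet scores in 8 of 8 (-1.56 to -0.65), each interval below 0. These are clusters of at least 100 cells per library. At resolution 1.0 the dendritic cell-like cells fell below that and had -0.44. Both clusterings divide the Haus4 UMIs by which it was chosen, so their counts are a description. The number of subunits at least 1.2-fold higher in G2/M than in G1 depended on the method. For control cells it was 8 by phase and 4 between the highest and lowest 20% by G2/M UMIs. After knockdown it was 4 by phase, 7 with phases from all UMIs, 1 by the 20% groups, and 1 when cluster 6 was also left out, an alternative chosen after seeing the data. The cause of this spread was not tested. Shares over all genes are given above, except for phases from all UMIs, where they were not counted. No paired analysis was possible because each group had 1 library.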

Other observations

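Because genes named as copies of ribosomal protein genes stood among those most like Haus4, such genes were counted by name, a grouping chosen after that result was seen. Of 8 genes of at least 20 CPM whose symbol starts with Rpl or Rps and holds "-ps", 6 were at least 1.2-fold lower after knockdown (median log2 -0.32). These include Rpl23a-ps3 and Rpl9-ps6, which prompted the count, so it is no independent support; of all genes of that level 4.06% were lower. Of 77 such symbols without that mark, 1 was lower (median -0.01). That 1 was Rpl6l (log2 -0.51), itself among the genes most like Haus4. Counts of near-identical copies are uncertain.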
